A study of Mus musculus with 6 samples.

Results

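The 41 mouse genes described here encode proteins that mark, license and fire replication origins or work at the replication fork. They were taken as a named set from the 21887 protein-coding genes of the annotation, and the rule that names them uses no measured value. Open chromatin at these genes was compared by ATAC-seq, in which the Tn5 transposase cuts accessible DNA, between 3 Stag2-KO and 3 Stag2-WT libraries of mouse urothelium, the epithelium that lines the bladder. The Stag2-KO group lost Stag2 and was collected 1 week after TMX induction. The Stag2-WT group kept Stag2 and was collected at the same time. Mice of both groups had received TMX in the diet, and in both groups GFP+, DAPI- cells were sorted from peeled urothelium, 50000 cells per condition, in batch 1. The labels name neither the driver of recombination, nor the age of the mice, nor how many mice went into a library, and they call the libraries biological replicates. A p-value therefore covers the spread between these libraries. Stag2 encodes a subunit of cohesin, and the study asked what loss of Stag2 does to chromatin in quiescent urothelial cells.

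The origin recognition complex (ORC) binds origins, and CDC6 and CDT1 then help it to load the MCM helicase, a step that geminin restrains. CDC45 and the GINS complex turn the loaded helicase into the active CMG helicase, after which polymerase alpha-primase, polymerase delta, polymerase epsilon, the PCNA clamp and its RFC loader copy the DNA. Many of these genes are textbook targets of E2F factors and are transcribed mainly around S phase, while the urothelium divides rarely.

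For each gene, the strongest interval within 1000 bp of an end of its span was found in each library, at the end of the span with the better mean over the 6 libraries, and the interval was ranked by the fold over background that the authors' peak caller gave. Rank 1 is the strongest interval of a library, the best 100000 intervals were ranked, and a gene without one received the next rank after the last. The promoters of 6 genes whose values are given below are shown here, the 3 with the smallest unadjusted p in each direction among members with a promoter in the RefSeq table. The sequences are from RefSeq, build GRCm38.p6, run 5′ to 3′ on the strand of the gene, and span 250 bases upstream to 50 bases downstream of a start. Prim1 lies at chr10:128014965-128015264 on the plus strand, Tyms at chr5:30073576-30073875 on the minus strand and Rpa1 at chr11:75348334-75348633 on the minus strand. Lig1 lies at chr7:13278576-13278875 on the plus strand, Rpa3 at chr6:8259092-8259391 on the minus strand and Pole2 at chr12:69228141-69228440 on the minus strand. Capitals mark E2F-like letters (TTCCCGC and its variants TTGGCGC and then TTCGCGC and finally TTGCCGC) and CCAAT boxes, searched on both strands.
Prim1: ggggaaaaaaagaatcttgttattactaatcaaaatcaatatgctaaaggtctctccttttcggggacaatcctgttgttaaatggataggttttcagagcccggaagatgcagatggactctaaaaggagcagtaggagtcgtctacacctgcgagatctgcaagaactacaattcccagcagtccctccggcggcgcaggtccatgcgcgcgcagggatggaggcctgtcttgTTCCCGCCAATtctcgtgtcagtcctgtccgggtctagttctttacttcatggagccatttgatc
Tyms: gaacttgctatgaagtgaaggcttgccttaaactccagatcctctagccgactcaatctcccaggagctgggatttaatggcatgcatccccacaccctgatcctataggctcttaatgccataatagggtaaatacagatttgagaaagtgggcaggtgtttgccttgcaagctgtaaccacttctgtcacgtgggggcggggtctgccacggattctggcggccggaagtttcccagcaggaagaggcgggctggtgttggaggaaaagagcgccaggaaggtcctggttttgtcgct
Rpa1: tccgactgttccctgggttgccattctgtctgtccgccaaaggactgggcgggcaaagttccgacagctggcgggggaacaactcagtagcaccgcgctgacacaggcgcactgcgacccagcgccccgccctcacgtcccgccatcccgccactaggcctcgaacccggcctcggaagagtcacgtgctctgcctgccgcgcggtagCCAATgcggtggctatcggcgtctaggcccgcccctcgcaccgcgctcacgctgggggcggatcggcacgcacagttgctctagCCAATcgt
Lig1: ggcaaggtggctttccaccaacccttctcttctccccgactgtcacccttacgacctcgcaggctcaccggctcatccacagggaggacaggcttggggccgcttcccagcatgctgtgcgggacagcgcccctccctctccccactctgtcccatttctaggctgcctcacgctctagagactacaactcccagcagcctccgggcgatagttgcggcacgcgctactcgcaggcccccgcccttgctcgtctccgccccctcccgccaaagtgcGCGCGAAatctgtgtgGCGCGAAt
Rpa3: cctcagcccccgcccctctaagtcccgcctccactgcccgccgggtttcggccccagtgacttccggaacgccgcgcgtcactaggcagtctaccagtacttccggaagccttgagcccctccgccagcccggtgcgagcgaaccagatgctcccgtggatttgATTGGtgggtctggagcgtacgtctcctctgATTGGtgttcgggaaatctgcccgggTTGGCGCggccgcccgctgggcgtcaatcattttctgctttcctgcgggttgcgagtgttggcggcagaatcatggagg
Pole2: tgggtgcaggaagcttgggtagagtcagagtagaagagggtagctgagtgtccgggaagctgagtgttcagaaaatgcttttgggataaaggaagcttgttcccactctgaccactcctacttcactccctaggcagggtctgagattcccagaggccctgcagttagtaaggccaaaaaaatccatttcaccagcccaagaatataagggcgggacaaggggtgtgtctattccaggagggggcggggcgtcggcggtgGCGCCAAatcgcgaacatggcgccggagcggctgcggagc
The E2F-like letters were found in Prim1, Lig1, Rpa3 and Pole2, and in Prim1 they overlapped a CCAAT box by 1 letter. Tyms held none of the motifs searched. Among the 34 members with a promoter in the table, 22 (64.7%) held an E2F-like match, against 12.4% of all 17492 promoters. CCAAT was found in 17 of the 34 members, against 38.9% of all promoters. The CHR letters (TTTGAA or TTCGAA), which occur in many genes of late cell cycle phases, were found in 4 members (11.8%), against 18.0% of all promoters. A match is a description of the letters and not a measured binding site.

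The 6 lists held 149153 to 260462 distinct intervals. The background coverage read from the lists was 7.98, 5.89 and 6.88 in KO replicates 1 to 3, against 7.59, 6.37 and 6.90 in WT replicates 1 to 3 (exact permutation p = 0.9, two-sided), so the groups overlapped in depth. Of the best 50000 intervals, 23.4%, 23.5% and 21.6% lay at gene ends in the KO replicates, against 21.3%, 20.5% and 20.6% in the WT replicates (exact permutation p = 0.1, the smallest that 3 against 3 can give). The part of this shift in the ranks of single genes was not tested. Gains from ranks among gene ends only, and from a fit with this share as covariate, are given below beside the main values. The deleted gene was no direct check of the labels, because these lists hold open chromatin and not RNA: the interval at Stag2 ranked 16287, 20829 and 26329 in KO and 29586, 34076 and 28720 in WT. Of 16 urothelial markers 15 had an interval in at least 3 libraries, with 8 to 11 in the best 50000 of the KO libraries and 6 to 9 in those of the WT libraries, and Trp63 was the exception. Of 8 fibroblast, 5 endothelial and 7 leukocyte markers, at most 1, 1 and 3 were in the best 50000 of any library, but 3 or 4 of 5 smooth muscle markers were. The part of such cells in the members' ranks was not tested. In such bulk libraries fewer cells of a type and less open chromatin per cell cannot be told apart.

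Most replication genes had an open interval at a gene end in both genotypes. Of the 41 genes, 37 had a ranked interval at the span end used in at least 3 libraries, and each of these 37 had one in all 6. The other 4 were Orc1, Orc4, Rfc1 and Tk1. Between 34 and 36 of the genes were in the best 50000 of a library, and 12 to 17 were in the best 10000. The genes covered much of the range of gene ends: the median gene stood at percentile 72.8 of the 14290 gene ends tested, 11 genes were above percentile 90 and 10 were under percentile 50.

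**Figure D1:**
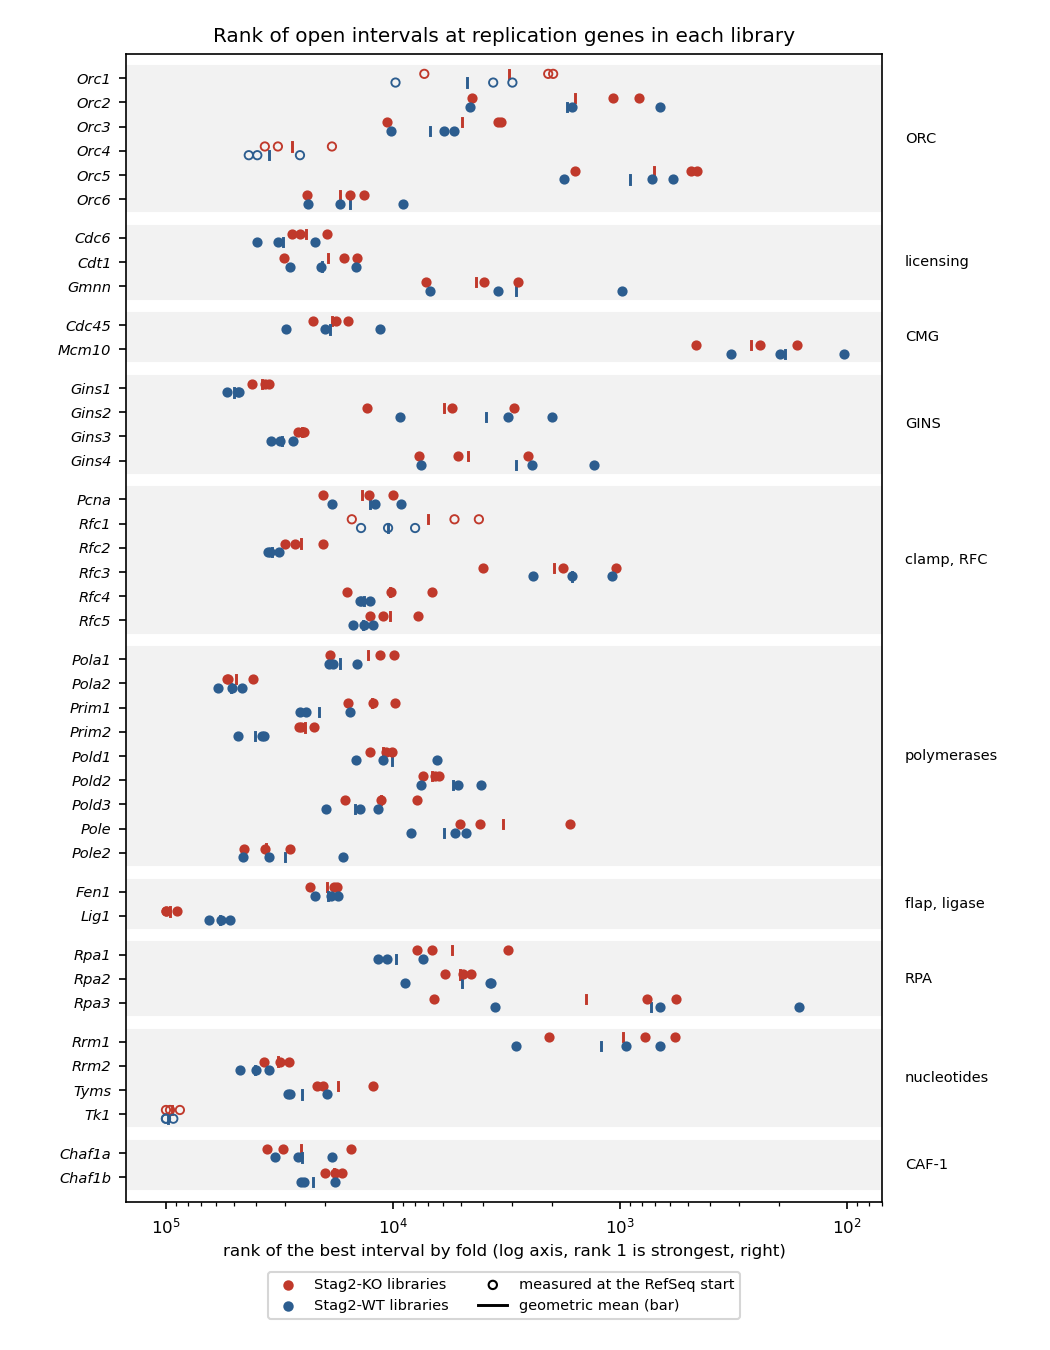
Rank of the strongest interval at each of the 41 genes (log axis, rank 1 at the right) in the 3 Stag2-KO libraries (red, upper row of each gene) and the 3 Stag2-WT libraries (blue, lower row), with bars at the geometric means. Mcm10 sits at the right edge and Tk1 at the left edge in both genotypes, and for most genes red and blue points overlap.

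The gene with the best mean rank over the 6 libraries was Mcm10, whose product binds the CMG helicase when it starts to move. Its interval, chr2:5012501-5012997 in KO replicate 1 (mm10), had ranks of 165, 460 and 241 in KO replicates 1 to 3, against 197, 323 and 103 in WT replicates 1 to 3. The authors' fold there was 39.3, 44.4 and 33.8 in KO, against 29.6, 43.4 and 35.3 in WT. The ranks of the genotypes overlapped, and in WT replicate 1 Rpa3 was ahead of Mcm10, at rank 162. At the other end of the scale was Tk1, the thymidine kinase of the salvage pathway, which was not tested because the end with the better mean, its far end, had a ranked interval in 2 libraries only, KO replicates 1 and 2 (ranks 86769 and 65650). At its RefSeq start, 73 bp from the other span end, weak intervals were listed, at ranks 110470, 95961 and 86821 of the whole KO lists, against 112853, 129762 and 92829 of the whole WT lists. Their fold lay between 3.19 and 4.73 in the 6 libraries. In both genotypes these ranks were near or beyond 100000, the last rank used. The whole lists went on to between 149153 and 260462 intervals, so Tk1 was not at their end.

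No replication gene passed the test between the genotypes. The gain is the difference in mean −log2 rank, KO minus WT: a positive gain means a stronger rank in KO, and a gain of 1 means a rank number divided by 2. In limma, 0 of 37 genes were called at an adjusted p under 0.05 in either direction, beside 0.021% of all gene ends called higher in KO and 0.049% called lower, and the adjusted p of the members ran from 0.298 to 0.989. At an unadjusted p under 0.05 limma gave 1 member higher in KO (Prim2) and 1 lower (Lig1), beside 10.5% and 2.2% of all gene ends. With a block on the replicate number these counts were 5 and 1, beside 21.5% and 4.46% of all gene ends, and again no member passed the adjusted threshold. The labels do not state a pairing by number, so this block is not given by the design.

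The number of calls over all gene ends depended on single libraries, while no member was called without any of them. With all 6 libraries 3 gene ends were called higher in KO and 7 lower. The counts were 605 (4.27% of gene ends) and 143 (1.01%) without KO replicate 3, 261 (1.85%) and 144 (1.02%) without WT replicate 2, 6 and 12 without KO replicate 2, and 4 and 8 without WT replicate 3. They were 0 and 1 without KO replicate 1 and 0 and 6 without WT replicate 1. In each of these 6 fits 0 members were called by limma.

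The members' gains were split in direction. Of the 37, 22 had a gain above 0 (59.5%, beside 68.9% of all gene ends) and 15 below, with a median of 0.11, against a median of 0.21 over all gene ends, and 18 members were above that median and 19 below. When intervals were ranked among gene ends only, which removes the higher gene-end share of the KO lists, the median over all gene ends was 0.020 and that of the members 0.054, and the counts at an unadjusted p under 0.05 were 706 gene ends higher in KO and 586 lower, against 1500 and 314 among all intervals. By these ranks the licensing median, 0.09 in the order of all intervals, was -0.10, and that of CAF-1, 0.14 in that order, was -0.032. Without WT replicate 2 the members' median was -0.12, and without WT replicate 1 it was 0.39. For 24 of the 37 genes the gain was smaller than the pooled SD between replicates. The libraries of the genotypes did not overlap for 4 members with stronger ranks in KO (Gins1, Gins3, Rfc2 and Prim2), which is 10.8% beside 15.2% of all gene ends. They did not overlap for 1 member with weaker ranks in KO (Lig1), which is 2.7% beside 2.06% of all gene ends. Ranked among gene ends only, the gains of Gins1, Gins3, Rfc2 and Prim2 were 0.10, 0.054, 0.17 and 0.34. In the order of all intervals they were 0.41, 0.30, 0.42 and 0.73. The gain of Lig1 was -0.29 among gene ends, against -0.74 in the order of all intervals.

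**Figure D2:**
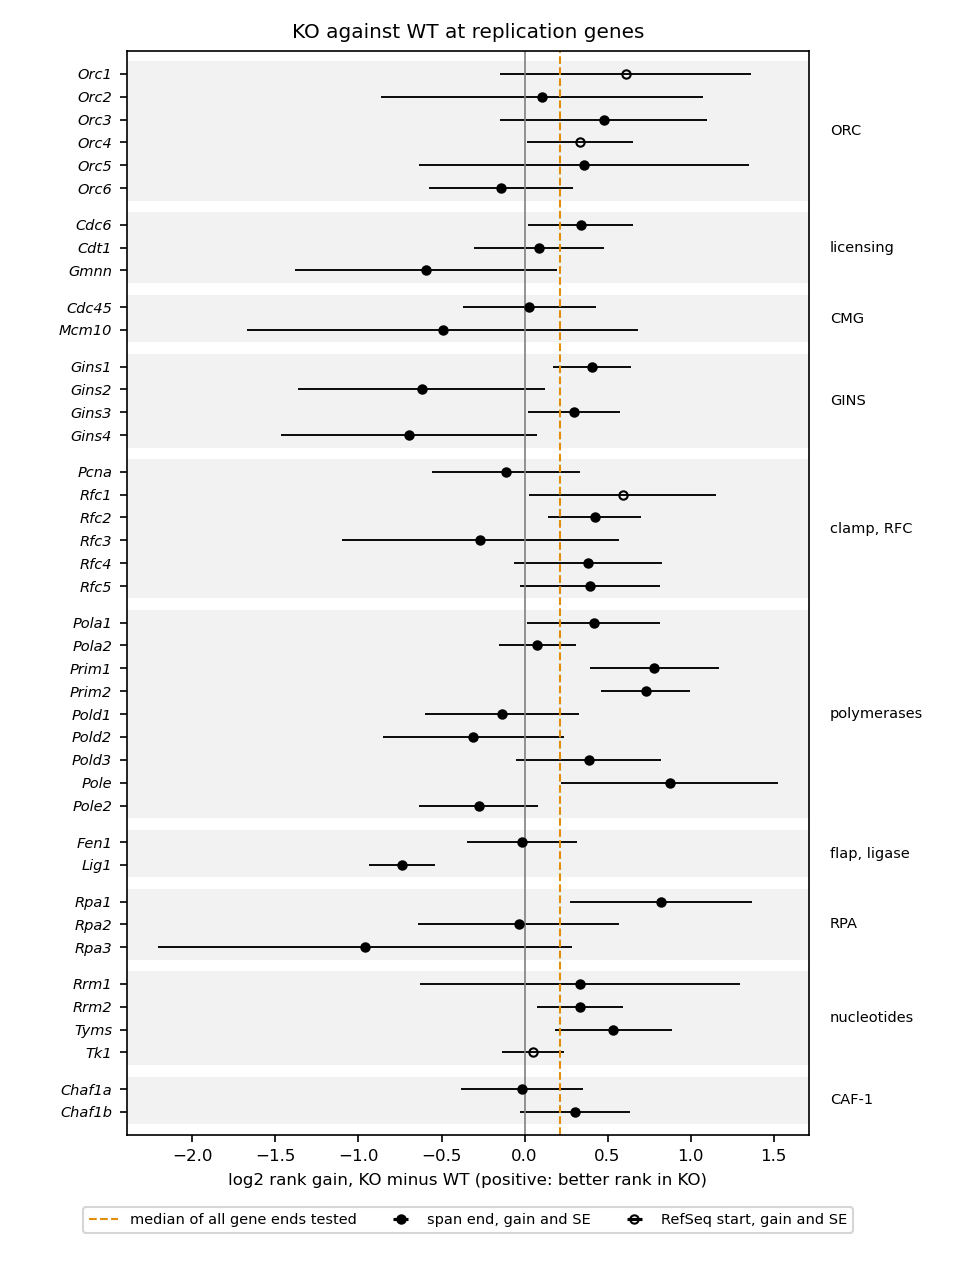
Gain in −log2 rank, KO minus WT, of each gene with its SE from limma (filled: at a span end, open: at a RefSeq start, used for the 4 genes without a tested span end). The dashed line is the median of all gene ends, 0.21, and the gains lie on both sides of it, with Lig1 and Prim2 farthest from 0 for the size of their error.

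The genes of ORC were open in every library when measured at their starts. The spans of Orc1, Orc4 and Rfc1 in the annotation reach 3749, 2668 and 2978 bp beyond the nearest RefSeq start, so their starts lay outside the windows. At the RefSeq start Orc1, the subunit whose level changes with the cell cycle in mammals, ranked 1968, 7273 and 2069 in KO, against 3616, 9741 and 2976 in WT, with a gain of 0.61 ± 0.75 (SE, n = 3 each). Orc4 ranked 18565, 36676 and 32122 in KO, against 25679, 39583 and 43164 in WT, a gain of 0.33 ± 0.32. The libraries of the genotypes overlapped at both genes.

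Orc5, an ATP-binding subunit, had the best mean rank of the complex over the 6 libraries, though Orc2 was ahead of it in WT replicate 1, at rank 663. It ranked 456, 1575 and 487 in KO, against 720, 1755 and 583 in WT, and replicate 2 was the weakest in both genotypes. Its gain was 0.36 ± 1.00, and Orc2, Orc3 and Orc6 had gains of 0.11, 0.48 and -0.14. The median over the 4 tested subunits was 0.23, and with 1 library left out it ran from -0.29 without WT replicate 2 to 0.90 without KO replicate 2. It was also below 0 without KO replicate 1 (-0.085) and KO replicate 3 (-0.042), and it was 0.72 in the order of −log10 p. The Orc3 window also holds an end of Rars2, 6 bp away, and that of Orc6 an end of Vps35, 115 bp away.

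The licensing genes had moderate to strong intervals. Gmnn, which encodes geminin, the inhibitor of CDT1, was the strongest, with ranks of 2820, 7150 and 3970 in KO, against 983, 6870 and 3455 in WT. The best library of the gene was WT replicate 1, the groups overlapped, and the gain was -0.59 ± 0.79. Without WT replicate 1 it was 0.18. Cdc6, the loader of MCM, ranked between 19599 and 27712 in KO and between 22042 and 39568 in WT, with a gain of 0.34 ± 0.32. Cdt1 had a gain of 0.09 ± 0.39, and its interval was the widest at a tested span end, with a median of 1176 bp.

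Beside Mcm10, the helicase group held Cdc45 and the 4 GINS genes. Mcm10 had a gain of -0.49 ± 1.18 and Cdc45, which is part of the CMG helicase, a gain of 0.03 ± 0.40. The 4 GINS genes split into a strong and a weak pair. Gins4 ranked 5165, 7696 and 2540 in KO, against 1296, 7506 and 2442 in WT, and Gins2 ranked 5509, 13034 and 2921 in KO, against 1992, 9345 and 3116 in WT. For both, WT replicate 1 had the best rank and the groups overlapped, with gains of -0.70 ± 0.77 and -0.62 ± 0.74. With 1 library left out these gains ran from -1.39 to -0.12 for Gins4 and from -1.25 to -0.051 for Gins2. Gins1 ranked 35053, 36485 and 41898 in KO, against 47751, 54067 and 48295 in WT, a gain of 0.41 ± 0.23, and every KO library was ahead of every WT library (limma adjusted p = 0.459). Gins3 had a gain of 0.30 ± 0.28. The median of the 4 genes was -0.16, and with 1 library left out it ran from -0.48 without WT replicate 2 to 0.14 without KO replicate 2. It was also above 0 without WT replicate 1 (0.13), and it was 0.20 when the fit held each library's gene-end share.

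Pcna, the sliding clamp that holds polymerases on DNA, had ranks of 9953, 20332 and 12747 in KO, against 9203, 18554 and 11941 in WT. Its gain was -0.11 ± 0.44. Of the RFC loader, Rfc3 had the strongest interval, with ranks of 1780, 4019 and 1044 in KO, against 1085, 2425 and 1632 in WT. These overlapped, and the gain was -0.27 ± 0.84. Rfc2 ranked 27019, 20235 and 29793 in KO, against 34887, 31735 and 35394 in WT. The Rfc2 libraries did not overlap, with a gain of 0.42 ± 0.28 and a limma adjusted p of 0.520. Rfc4 and Rfc5 had gains of 0.38 and 0.39, each about as large as its SE of 0.45 and 0.42. Rfc1, the large subunit, was measured at its RefSeq start and ranked 4181, 5355 and 15175 in KO, against 10506, 7985 and 13819 in WT, a gain of 0.59 ± 0.56. The median of clamp and loader over the 5 genes tested was 0.38, and it was 0.07 without KO replicate 1.

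The primase genes had the largest gains for their error among the polymerases. Prim2, the large primase subunit, had ranks of 22379, 25328 and 26004 in KO, against 48151, 37710 and 37104 in WT. All 3 KO libraries were ahead of all 3 WT libraries. The authors' fold at Prim2, chr1:33670060-33670623 in KO replicate 1, was 15.0, 19.2 and 13.5 in KO, against 7.57, 15.2 and 11.2 in WT. The gain was 0.73 ± 0.27 (limma unadjusted p = 0.0160, adjusted p = 0.334), which did not pass the threshold. An end of a long non-coding RNA gene, 1700001G17Rik, lies 16 bp from this end of Prim2. Over the alternatives tried its adjusted p did not go below 0.113.

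Prim1, the catalytic primase subunit, ranked 12185, 9814 and 15779 in KO, against 24267, 15386 and 25686 in WT. KO replicate 3 was behind WT replicate 2, so the groups overlapped, and the gain was 0.78 ± 0.39 (limma adjusted p = 0.406). Pole, the catalytic subunit of the leading strand polymerase epsilon, had the best mean rank of the polymerases over the 6 libraries, with 1663, 4122 and 5043 in KO, against 4785, 5345 and 8329 in WT. In WT replicate 3 Pold2 was ahead of it, at 4073. Its gain was 0.87 ± 0.65, and KO replicate 3 lay behind WT replicate 1. Its partner Pole2 ranked 36787, 28556 and 45402 in KO, against 16564, 45919 and 35326 in WT. WT replicate 1 stood ahead of the other Pole2 libraries, and the gain was -0.28 ± 0.36, or 0.15 without that library.

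The remaining polymerase genes had gains within about 1 SE of 0. Those of polymerase alpha were 0.42 ± 0.40 at Pola1, the catalytic subunit, and 0.08 ± 0.23 at Pola2. Those of polymerase delta, the lagging strand enzyme, were -0.14 ± 0.46 at Pold1, -0.31 ± 0.54 at Pold2 and 0.39 ± 0.44 at Pold3. Over the 9 genes 6 gains were above 0, beside 68.9% of all gene ends, and the median was 0.39, against 0.21 over all gene ends. The median of the 9 genes was -0.21 with the gene-end share of each library as a covariate, 0.08 at RefSeq starts, for which 7 of the 9 genes had one, and 0.14 without KO replicate 3. None of the 9 genes was called in any of these fits.

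Lig1, the ligase that seals Okazaki fragments, had the smallest p of all members, but not at its start. No library had an interval within 1000 bp of the start edge of its span, chr7:13277175. The strong interval of Lig1, at a RefSeq start inside the span (chr7:13278826), lay outside that window. The better end by mean rank was the far end of the span, where a weak interval, chr7:13310515-13310766 in KO replicate 1, ranked 89676, 99612 and 99805 in KO, against 64587, 57059 and 52084 in WT. Every KO library was behind every WT library. The authors' fold there was 4.57, 4.50 and 3.93 in KO, against 5.82, 10.6 and 8.48 in WT. The gain was -0.74 ± 0.20 (limma unadjusted p = 0.00217, adjusted p = 0.298). It came nearest to the threshold without KO replicate 3, at an adjusted p of 0.0526. An end of Pla2g4c lies 81 bp from this end of Lig1, so the interval cannot be assigned to either gene.

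At the RefSeq start of Lig1, whose promoter is printed above, the interval was strong in both genotypes. It ranked 6159, 9220 and 7661 in KO, against 4284, 10355 and 9150 in WT. The ranges overlapped, and the gain was -0.03 ± 0.55 with a limma adjusted p of 0.987. Fen1, the flap endonuclease that trims Okazaki fragments, ranked 17675, 18242 and 23237 in KO, against 17456, 22107 and 18816 in WT, a gain of -0.02 ± 0.33. The median of this pair was -0.38 at span ends and -0.02 at RefSeq starts.

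The 3 subunits of RPA, which coats single-stranded DNA, differed in direction. Rpa1, the large subunit, ranked 3106, 6697 and 7863 in KO, against 7343, 11621 and 10573 in WT. KO replicate 3 was behind WT replicate 1, and the gain was 0.82 ± 0.55. Rpa3, the small subunit, ranked 763, 6565 and 567 in KO, against 162, 3559 and 666 in WT. Its worst rank number was 11.6 times its best in KO and 22.0 times in WT, the widest spread of any member in each genotype. The gain was -0.96 ± 1.25, and it was 0.14 without KO replicate 2 and 0.12 without WT replicate 1. Rpa2 had a gain of -0.04 ± 0.61. The windows of Rpa1 and Rpa3 also hold an end of Smyd4 and of Umad1, 21 and 147 bp away.

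The 3 tested genes of nucleotide supply had gains above 0, beside 68.9% of all gene ends. Their median was 0.33, against 0.21 over all gene ends. With ranks among gene ends only it was 0.29 against 0.020, and with the gene-end share as covariate 0.053 against -0.017. Rrm1, the large subunit of ribonucleotide reductase, had one of the strongest intervals of the set, with ranks of 773, 2052 and 569 in KO, against 666, 2873 and 941 in WT, and these overlapped. Its gain was 0.33 ± 0.96, and without WT replicate 2 it was -0.29. Tyms, thymidylate synthase, ranked 12194, 21499 and 20264 in KO, against 19604, 29030 and 28345 in WT, and KO replicates 2 and 3 were behind WT replicate 1. Its gain was 0.53 ± 0.35 (limma adjusted p = 0.516). Rrm2, the small reductase subunit, had weaker ranks, 28786 to 37040 in KO against 35180 to 47269 in WT, and a gain of 0.33 ± 0.26. The gain at the weak interval of the Tk1 start was 0.05 ± 0.19.

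Chaf1a and Chaf1b encode subunits of CAF-1, the histone chaperone that builds nucleosomes behind the fork. Chaf1b ranked 17913, 19855 and 16834 in KO, against 17963, 25302 and 24731 in WT, a gain of 0.30 ± 0.33 with 1 pair of libraries overlapping. Chaf1a ranked 30378, 35734 and 15290 in KO, against 18523, 32981 and 26240 in WT, a gain of -0.02 ± 0.37.

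The order of intervals changed when the authors' −log10 p was used in place of the fold. Ranked in this way, Gmnn was at 1557, 2867 and 902 in KO, against 493, 831 and 435 in WT, a gain of -1.50 ± 0.51. Gins4 was at 2062, 1213 and 1005 in KO, against 472, 815 and 537 in WT, a gain of -1.20 ± 0.46. The KO libraries of both genes were behind all WT libraries. Orc3 went the other way, with 969, 998 and 1618 in KO, against 4051, 1944 and 3401 in WT, a gain of 1.37 ± 0.43. Rpa1 had a gain of 1.31 ± 0.60 by this order, and Rpa3 one of 0.08, so that its sign turned.

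None of these passed the adjusted threshold in limma, where the smallest adjusted p of a member was 0.248, and 0.035% of all gene ends were called higher in KO and 0.0701% lower. By this order 38 members were tested, with 3 higher and 3 lower at an unadjusted p under 0.05, beside 14.2% and 4.85% of all gene ends. The groups did not overlap for 4 members with stronger ranks in KO, namely Orc3, Gins1, Prim1 and Prim2 (10.5%, beside 11.0% of gene ends). They did not overlap for 4 with weaker ranks in KO, namely Gmnn, Gins4, Mcm10 and Lig1 (10.5%, beside 4.79%). The −log10 p grows with depth as well as with fold, and the part of depth in these gains was not tested.

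Libraries of one genotype differed from each other in a shared way. Replicate 2 had the weakest rank of its genotype at 22 of 37 genes in KO and at 29 of 37 in WT, and in both genotypes at 20 genes (54.1%, against 37.3% of all gene ends). Among the 10 members with a geometric mean rank under 5000 this held for 9, against 67.2% of the 1284 gene ends of that strength. These 10 were Mcm10, Orc5, Rpa3, Rrm1, Orc2, Rfc3, Gmnn, Gins4, Pole and Gins2, and Pole was the exception. Replicate 2 also had the lowest background coverage of each genotype, 5.89 in KO and 6.37 in WT. Its part in the ranks was not tested.

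**Figure D3:**
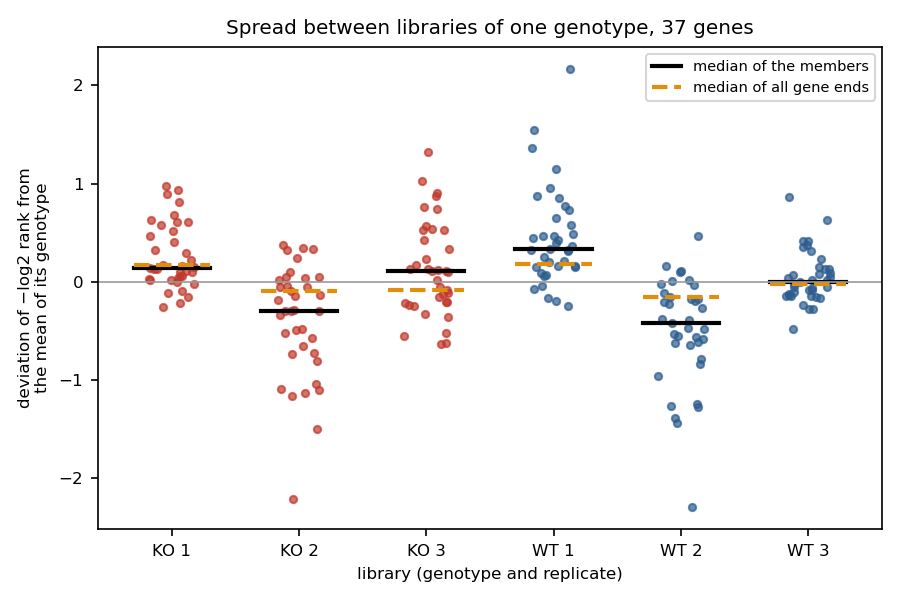
Deviation of the −log2 rank of each of the 37 tested genes from the mean of its genotype, by library, with the median of the members (black) and of all gene ends (dashed). The members' medians are 0.14, -0.29 and 0.11 in KO replicates 1 to 3 and 0.34, -0.42 and -0.01 in WT replicates 1 to 3, so replicate 2 is lowest in both genotypes.

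The position of the open interval was stable. At 28 of 34 genes with a RefSeq start the median summit lay within 150 bp of that start, and at 26 of the 34 it lay upstream. Where several starts of a gene had the same mean rank, the start with the lowest coordinate was used, and the counts depend on this choice. The median summit of Pold2 was thus at -689 bp, against -96 bp from its other start. That of Fen1 was at -279 bp, against 193 bp from its other start. The summits of the 6 libraries spanned at most 50 bp at 28 genes. Among the exceptions, the strongest summit at Pole2 differed between libraries and lay between -86 and 244 bp. At Rrm2 it lay near 405 bp in some WT libraries and at -38 bp or close to it in the others. The interval at Rpa3 had a median width of 1032 bp with 3 summits, and that of Prim1 was the narrowest of the tested genes other than Lig1, with 380 bp and 1 summit. Over the tested members the median width was 654, 718 and 662 bp in KO, against 824, 737 and 750 bp in WT. Over the best 50000 intervals it was 421, 444 and 441 bp in KO, against 504, 454 and 481 bp in WT (exact permutation p = 0.1, two-sided). The members thus shared a difference in width that the whole lists also had, and its cause was not tested.

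**Figure D4:**
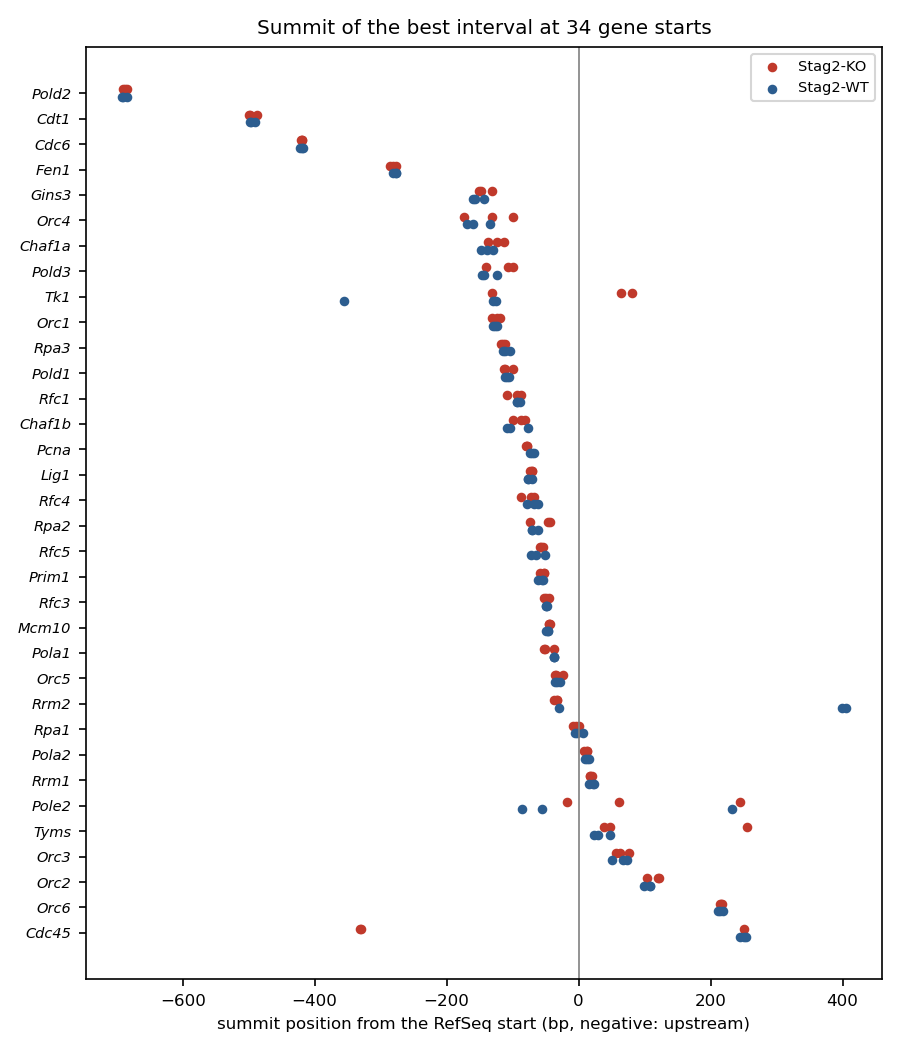
Position of the summit of the strongest interval at the RefSeq start of 34 genes (bp, negative is upstream) in the 3 Stag2-KO libraries (red, upper row) and the 3 Stag2-WT libraries (blue, lower row). Points of one gene lie on top of each other for most genes, and those of Tk1, Rrm2, Pole2, Tyms and Cdc45 are spread.

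The motifs were set beside the gains as a description, with no test. The median gain at RefSeq starts was 0.32 in the 22 members with an E2F-like match and 0.06 in the 12 without. Over all 11365 starts tested the median gain was 0.23. For CCAAT it was 0.11 in 17 members with and 0.30 in 17 without, and for CHR -0.12 in 4 with and 0.32 in 30 without. At the RefSeq starts 0 of 34 members were called in limma, beside 0.0088% of 11365 starts higher in KO and 0.0176% lower, and the adjusted p ran from 0.403 to 0.990. At an unadjusted p under 0.05 there were again 0 members, beside 11.3% and 1.38% of starts. Of the 41 genes, 12 shared the window with an end of another protein-coding gene and 18 with an end of any annotated gene.

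The test called none of the other genes of the replication pathway either. Of 38 such genes (MCM subunits, firing factors, fork protection and further nucleotide enzymes), all 38 had an interval in at least 3 libraries and 0 were called by limma in either direction. Of their gains 25 were above 0 and 13 below, with a median of 0.15, against 0.21 over all gene ends, and without WT replicate 2 the median was -0.05. At an unadjusted p under 0.05 limma gave 2 of the 38 higher in KO (Chtf8 and Mcm2) and 0 lower, beside 10.5% and 2.2% of all gene ends.

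Chtf8, a subunit of an alternative clamp loader, ranked 12899, 14263 and 25704 in KO, against 33950, 27872 and 34419 in WT, a gain of 0.93 ± 0.34. Mcm2, a subunit of the MCM helicase, ranked 38226, 50757 and 45682 in KO, against 61578, 69553 and 70597 in WT, a gain of 0.59 ± 0.22. In both, every KO library was ahead of every WT library. This held for 6 of the 38 genes, beside 15.2% of all gene ends. The reverse held for 0 of the 38, beside 2.06%. Clspn, which encodes the fork protein claspin, was another of the 6 and had a gain of 1.08 ± 0.52.

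Mcm3, another MCM subunit, had the strongest interval of these genes in 3 libraries, with ranks of 2723, 3747 and 346 in KO, against 80, 1842 and 141 in WT. WT replicate 2 lay behind KO replicate 3, so the groups overlapped, and the gain was -2.47 ± 1.33. Ticrr, a factor that loads CDC45, had a gain of -1.05 ± 1.20 and Chtf18 one of -0.25 ± 0.35.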

How the data were processed

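ATAC-seq was read from 6 peak lists in narrowPeak format, 1 per library, for 3 Stag2-KO and 3 Stag2-WT libraries. In the authors' lists a peak carries its fold over local background (a ratio), a −log10 p-value, a −log10 q-value and a display score, which was not used. Per the submitters' processing notes, the genome build was mm10 and the tools included DiffBind. No source used here names the aligner or the peak caller, and the threshold of each list decides which weak peaks it holds: KO replicate 1 starts at a −log10 p of 3.00 and the others at 2.00.

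Peaks sharing an interval were merged to 1 interval with its highest fold, and the best 100000 by fold were ranked in each library (ties by p, then position). Fold depends on depth, so it was used only as a rank within a list or as a description. An interval within 1000 bp of either span end of a protein-coding gene (RefSeq, GRCm38.p6, coordinates as in mm10) was used, and the end whose −log2 rank averaged best was kept. The 14290 gene ends with an interval in at least 3 libraries were fitted with limma 3.58.1 (R 4.3.3, trend, Benjamini-Hochberg over all of them at 0.05). The code of the fit was run on simulated data with independent noise in each library. Such data lack the differences that libraries share here, so that run does not show how the fit behaves with them. Single library values were compared by exact permutation. Background coverage is the smallest λ for which fold = (k + 1) / (λ + 1) and p is the Poisson tail of a whole coverage k, and it was whole for 100% of 4000 sampled peaks in each library. Python 3.11.15, NumPy 2.4.6, pandas 2.3.3, SciPy 1.17.1 and matplotlib 3.10.9 were used.

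The members, lists and tests were chosen with earlier results of these data known. Values in every library are given for the 6 members with the smallest unadjusted p in each direction, the member with the best rank in each role and members without a tested interval. Of the other replication genes, 3 in each direction are named. Library values are given for Chtf8, Mcm2 and Mcm3, and the gain and SE for Clspn, Ticrr and Chtf18. Other members are given with their values for completeness of their group. The alternatives were another ranking value, window, summit rule, list length, q filter, linear ranks, ranks among gene ends, other filters on gene ends, a covariate, a replicate block, the gene start and leaving out each library. Windows at RefSeq starts were added after seeing the data, because 4 members had no tested interval. Libraries with the same replicate number deviated together from their group means (correlations across gene ends of 0.18, 0.73 and 0.47), but KO replicate 3 and WT replicate 1 also did (0.50), and the other pairs were below 0. The labels do not state a pairing by number, and these correlations do not establish one, since KO replicate 3 was closer to WT replicate 1 than to WT replicate 3.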

Additional observations from a re-analysis of the deposited data

How the results depend on the processing

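No member was called in any of the 19 alternatives, and the smallest adjusted p of a member in any of them was 0.0526 (Lig1 without KO replicate 3). Of 685 gains of members under alternatives 630 kept their sign and 55 turned, over 24 members, none of them past the threshold. Lig1 (span end) and Tk1 stood near the end of the ranks used, where an interval can drop out at rank 100000, and the part of depth there was not tested. Every interval in the best 100000 of each library had a −log10 q of at least 2, so that this filter gave the same values. With the replicate block, the counts of gene ends at an unadjusted p under 0.05 were 3072 higher in KO and 637 lower, against 1500 and 314 without it, and it changed no other call. The cause of the changes below was not tested.

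Gene ends called higher and lower in KO (3 and 7 with the settings of the report) were 5 and 10 when ranked by −log10 p, 1 and 4 with linear ranks, 0 and 0 with ranks among gene ends, 0 and 2 with an interval in at least 1 library, 1 and 0 with the gene-end share as covariate, 0 and 2 at the gene start by strand, 1 and 2 at RefSeq starts, and 0 to 605 and 1 to 144 when a library was left out. At an unadjusted p under 0.05 limma gave 706 higher and 586 lower for ranks among gene ends.

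The median gain of the members ran from -0.12 to 0.39 when a library was left out, that of clamp and loader from 0.074 to 0.45 and that of the polymerases from 0.14 to 0.55. The polymerase median was -0.21 with the covariate and 0.077 at the gene start and at RefSeq starts. The GINS median was 0.023 with linear ranks (as a share of the list), and that of CAF-1 was 0.52 with the covariate. The median of Fen1 and Lig1 was -0.015 with a window of 500 bp, a list of 50000 and the gene start, -0.024 at RefSeq starts, -0.19 with linear ranks, -0.24 with ranks among gene ends and -0.59 with the covariate.

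Signs turned with the covariate for Cdc6 (-0.20), Cdc45 (-0.066), Gins2 (0.27), Rfc3 (0.69), Rfc4 (-0.53), Pola1 (-0.51), Pola2 (-0.21), Pole (-0.12), Rpa1 (-0.10), Rrm2 (-0.069) and Chaf1a (0.77). They turned with the −log10 p for Cdc45 (-0.38), Pcna (0.15), Pold1 (0.40), Pold2 (0.13), Rpa3 (0.084) and Chaf1a (0.10), with ranks among gene ends for Cdt1 (-0.10), Cdc45 (-0.15) and Pola2 (-0.057), and with linear ranks for Rpa2 (0.0031). When a library was left out, gains ran from -0.29 to 0.39 for Cdc45, -0.15 to 0.41 for Cdt1, -0.39 to 0.23 for Chaf1a, -0.11 to 0.11 for Fen1, -1.23 to 0.18 for Gmnn, -0.61 to 0.86 for Orc2, -0.12 to 0.94 for Orc5 and -0.45 to 0.24 for Orc6. They ran from -0.39 to 0.17 for Pcna, -0.046 to 0.16 for Pola2, -0.40 to 0.19 for Pold1, -0.58 to 0.15 for Pole2, -0.72 to 0.25 for Rfc3, -0.46 to 0.18 for Rpa2, -2.11 to 0.14 for Rpa3 and -0.29 to 0.88 for Rrm1.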
